A study of Mus musculus with 8 samples.

Results

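The cytosolic ribosomal protein genes encode the proteins of the ribosomes that work outside mitochondria. They were taken as the gene symbols made of Rpl or Rps followed by a number with at most a letter and a digit, together with Rplp0, Rplp1, Rplp2 and Rpsa. By that rule 83 of the 13341 genes in the table were members. They comprised 43 proteins of the large subunit, 3 proteins of the stalk that projects from it, 31 proteins of the small subunit and 6 paralogues (Rpl7l1, Rpl22l1, Rpl32l, Rpl39l, Rps4l and Rps27l). The first 3 classes, 77 genes, are called core members below. RNA was sequenced from T cells with high surface CD44, sorted from kidney and spleen of MRL/lpr mice that were 14 weeks old. The groups were kidney CD8+, kidney CD4+, spleen CD8+ and spleen CD4+ T cells, with 2 libraries each, 8 in all. Every group carried lpr, a mutation of the death receptor gene Fas with which this strain develops lupus-like nephritis, so no group was free of the disease background. The labels do not say whether the 2 libraries of a group came from separate animals or pools, so p-values measure only the spread between these libraries, which may be technical.

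A ribosome joins a small subunit, which reads the messenger RNA, to a large subunit, which forms the peptide bonds. Nearly every ribosomal protein is needed in equal number, and growing cells such as activated lymphocytes spend much of their transcription on these genes. Most ribosomal protein messenger RNAs begin with a run of pyrimidines (C or T in the DNA), the terminal oligopyrimidine motif, through which the kinase mTOR and the RNA-binding protein Larp1 control their translation. Some members also act outside the ribosome. Rpl5 and Rpl11 hold the p53 inhibitor Mdm2 when ribosome assembly is disturbed.

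The start-site sequences of 9 members described below are shown because the pyrimidine run is the feature these genes are known for. Some of the 9 hold no run long enough to be marked in the window searched. Each runs 5′ to 3′ on the transcript strand, 20 bases on either side of the annotated start (RefSeq, build GRCm38.p6). Capitals mark a run of at least 8 bases that are each C or T and that touches the 10 bases on either side of the start, searched on that strand only.
Rps6: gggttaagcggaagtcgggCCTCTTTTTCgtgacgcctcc
Rplp2: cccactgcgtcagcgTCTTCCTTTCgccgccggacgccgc
Rpl35: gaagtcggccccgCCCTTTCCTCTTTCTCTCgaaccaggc
Rps27: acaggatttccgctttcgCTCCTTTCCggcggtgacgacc
Rps27l: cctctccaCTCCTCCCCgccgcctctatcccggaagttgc
Rpl4: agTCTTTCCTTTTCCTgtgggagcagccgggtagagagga
Rps2: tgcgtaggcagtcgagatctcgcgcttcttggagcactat
Rpsa: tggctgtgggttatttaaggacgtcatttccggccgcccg
Rpl7l1: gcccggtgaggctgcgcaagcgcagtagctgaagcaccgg
These windows lie at chr4:86857348-86857387, minus strand for Rps6, chr7:141447631-141447670, plus strand for Rplp2, chr2:39005112-39005151, minus strand for Rpl35, chr3:90213629-90213668, minus strand for Rps27 and chr9:66946066-66946105, plus strand for Rps27l. Those of Rpl4, Rps2, Rpsa and Rpl7l1 lie at chr9:64173367-64173406, plus strand, chr17:24720043-24720082, plus strand, chr9:120127746-120127785, plus strand and chr17:46782637-46782676, minus strand. The first 6 held such a run, 18 bases long in Rpl35 and 9 in both Rps27 and Rps27l, and the last 3 held none. In Rps27l and Rpl4 the run ended before the annotated start, so it is not one with which the annotated transcript begins. Of the 62 members with a promoter entry, 30 (48.4%) had such a run at or near an annotated start, against 4259 of all 27025 symbols with an entry (15.8%). Among 15 other genes listed for a terminal oligopyrimidine start, 6 (40%) had one. A match describes these letters only and is no evidence of translational control. Shorter runs were not counted, so a gene without a marked run is not shown to lack the motif.

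Values are the authors' normalised signal, called levels below. The libraries held 7477544 to 11169003 reads, as recovered from the table, and 1 read was worth a level of 0.554 to 1.04. Cd4, Cd8a and Cd8b1 followed the labels. The kidney libraries also held transcripts of proximal tubule cells, a summed level of 5932 to 24004 over 9 of 9 markers, against 0 to 4.99 in spleen, where 8 of the 9, Miox and Fbp1 among them, had 0 reads. The spleen libraries held neutrophil transcripts, 3569 to 9099 over 8 of 8 markers against 0 to 29.6 in kidney, and erythroid transcripts, 9181 to 16837 over 6 of 6 markers against 11.3 to 255 in kidney. Ngp and Elane had 0 reads in all kidney libraries, as did Alas2. Their part in any difference between organs was not tested. In sorted bulk samples, fewer cells of a type and less RNA per cell cannot be told apart.

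Ribosomal protein genes took a larger share of both spleen CD8+ libraries than of any kidney CD8+ or spleen CD4+ library, while the 2 kidney CD4+ libraries lay far from each other. The 83 members together took 16.8% and 16.5% of all reads in the table in the kidney CD8+ libraries and 10.1% and 20.8% in the kidney CD4+ libraries. In spleen they took 23.2% and 20.8% in the CD8+ libraries and 15.1% and 16.8% in the CD4+ libraries. The mean share was 16.7% ± 0.178 in kidney CD8+, 15.4% ± 7.52 in kidney CD4+, 22.0% ± 1.69 in spleen CD8+ and 15.9% ± 1.19 in spleen CD4+ cells (SD, n = 2 each). With 2 libraries a group, an exact permutation test cannot give a two-sided p below 0.333, so the shares are given as a description. The median level of the core members was 12267 and 11053 in kidney CD8+, 4611 and 13757 in kidney CD4+, 14508 and 12631 in spleen CD8+, and 8422 and 9182 in spleen CD4+ libraries. All 77 core members stood above their own 8-library mean (log2 scale) in both spleen CD8+ libraries, and 75 and 72 stood below it in the spleen CD4+ libraries.

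**Figure D1:**
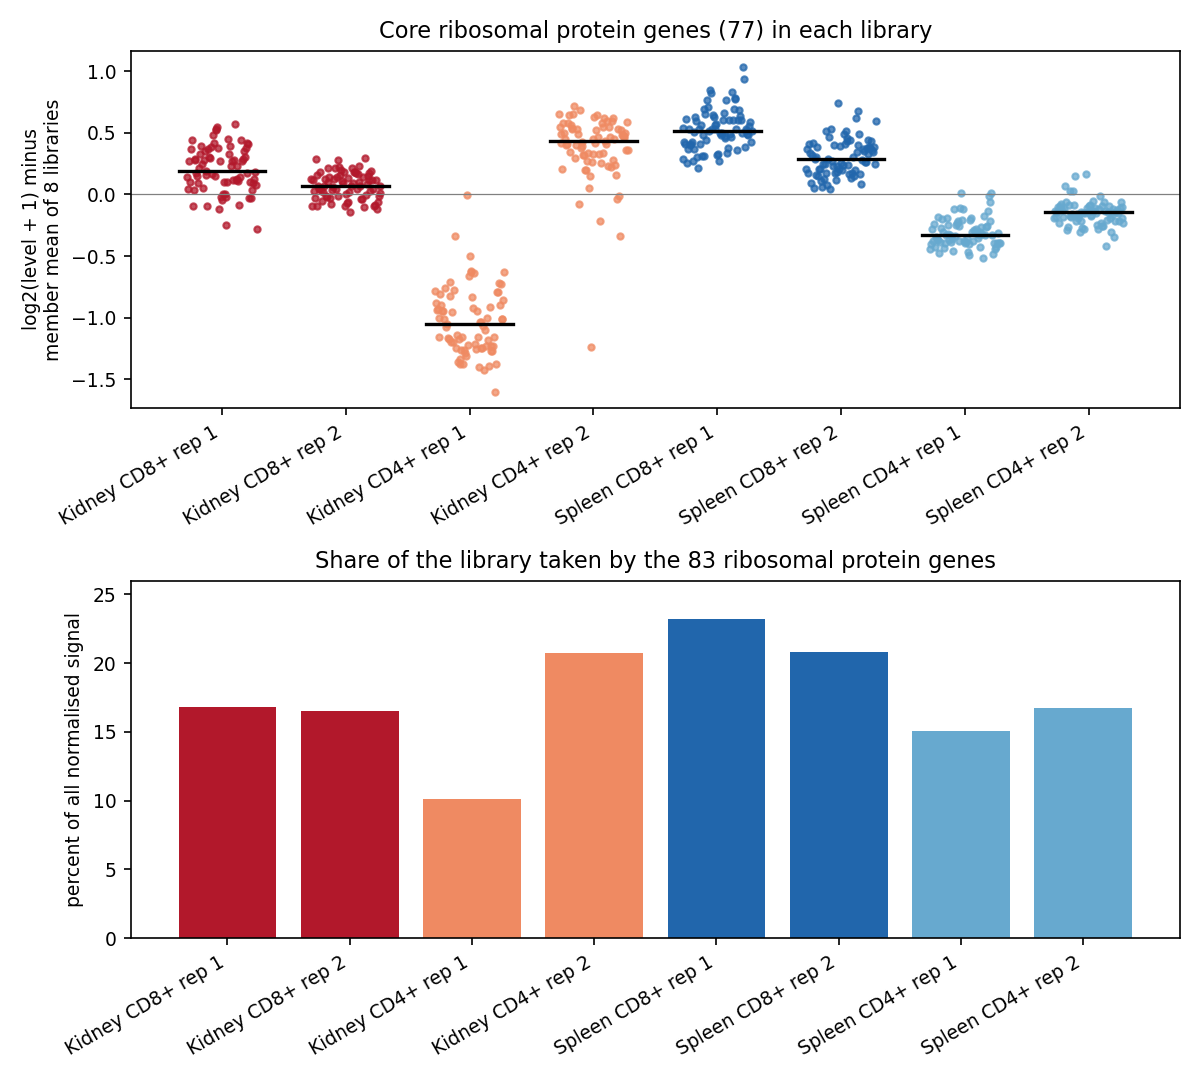
Upper plot: log2(level + 1) of each of the 77 core ribosomal protein genes minus that gene's mean over the 8 libraries, with 1 column of points per library and a bar at the median. Lower plot: percent of all reads taken by the 83 members, which ran from 10.1% in kidney CD4+ replicate 1 to 23.2% in spleen CD8+ replicate 1.

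The 2 kidney CD4+ libraries stood apart from each other in nearly every member, and this touches each comparison that uses them. Kidney CD4+ replicate 1 was the lowest of the 8 libraries for 76 of the 77 core members. Replicate 2 was the highest of the 8 for 27 of them, while spleen CD8+ replicate 1 was the highest for 45. The ratio of replicate 2 to replicate 1 had a median of 2.76 over the core members in kidney CD4+ cells. It exceeded 2 in 72 of 77, against 21.0% of the 10058 tested genes with reads in both of these libraries. The same median was 0.901 in kidney CD8+, 0.853 in spleen CD8+ and 1.12 in spleen CD4+ cells, and no core member exceeded 2 there. The exception was Rpl4, which lines the exit tunnel of the large subunit. It had 32334 and 13757 in kidney CD4+ replicates 1 and 2, a ratio of 0.425, whereas Rpl30, at the other end of the range, had 486 and 1862, a ratio of 3.83. The pair also differed in other measures: 11292 and 11756 genes had a read in replicates 1 and 2, the 10 most abundant genes took 10.8% and 16.7% of reads, and the 9 proximal tubule markers summed to 8344 and 20743. The 4 T cell markers summed to 41633 and 76783, although 1 of them, Cd3e, had 5456 and 637. Their part in the members' values was not tested.

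Ribosomal protein transcripts were short, with a median of 721.5 nt over the 79 members that could be given a length (mm9 gene models) and 61 of them under 1000 nt, against a median of 2200 nt over the other genes tested. The shortest was Rps27 at 345 nt, and the longest model was that of Rps20 at 3706 nt. The replicate difference in kidney CD4+ cells moved with length in other genes too. Its median on the log2 scale (replicate 2 minus replicate 1) was 1.29 for 256 other genes under 600 nt, 0.69 for 1208 genes of 600 to 1000 nt, 0.00 between 1000 and 1500 nt, -0.76 between 1500 and 2000 nt, -0.85 between 2000 and 3000 nt and -0.29 for 3063 genes over 3000 nt, so the order did not hold in the longest class. Members stood above the other genes of their own length class, at 1.58 for the 26 under 600 nt, 1.46 for the 34 of 600 to 1000 nt and 1.32 for the 15 of 1000 to 1500 nt. The longest paralogue by its gene model, Rpl7l1 (2606 nt), went the other way, with 760.5 and 294 in kidney CD4+ replicates 1 and 2. The part that transcript length plays in the members' values was not tested beyond these values and a fit with the length trend removed. That fit left out members without a known length. It called no member in any comparison, but neither did the fit without this step. With the trend removed, the median log2 difference of members moved from -0.25 to -0.41 for kidney minus spleen in CD8+ cells. In CD4+ cells it moved from -0.06 to -0.18. For CD8+ minus CD4+ cells it moved from 0.65 to 0.54 in spleen and from 0.46 to 0.34 in kidney.

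**Figure D2:**
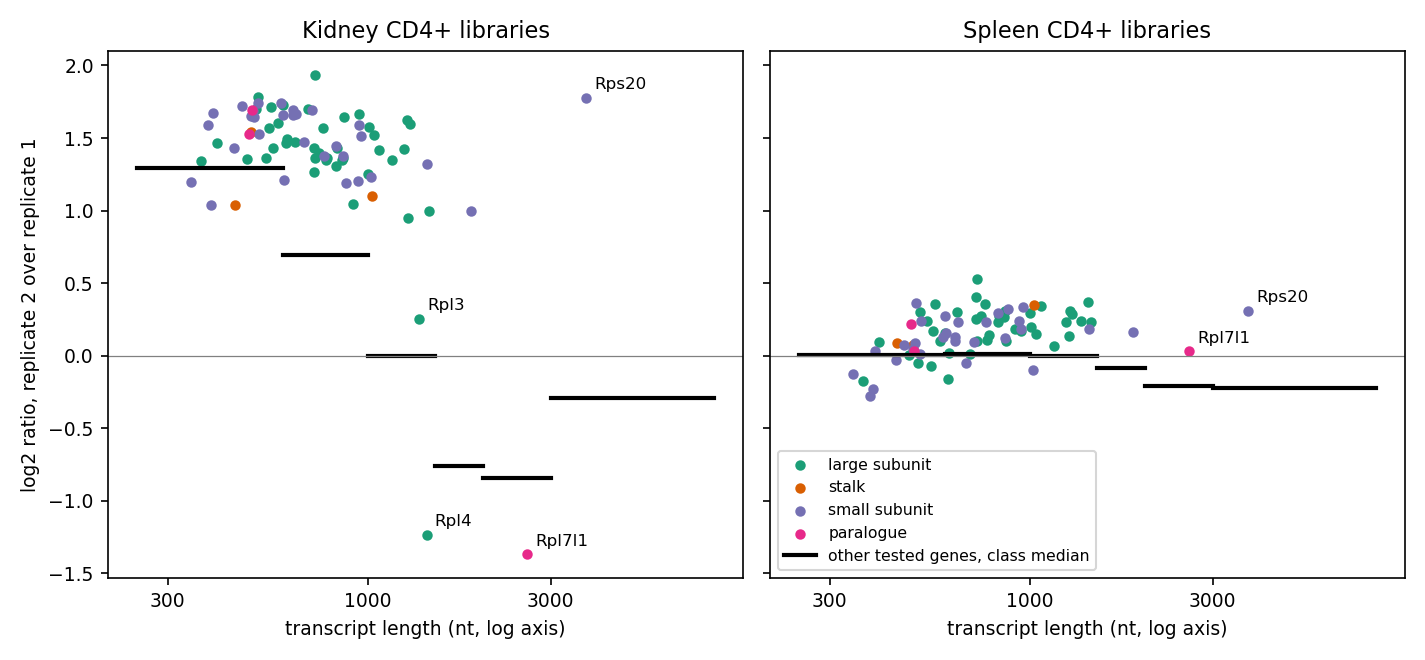
Log2 ratio of replicate 2 over replicate 1 for each tested member with a known transcript length, against that length in nt (log axis), in kidney CD4+ (left) and spleen CD4+ cells (right). Points are members by class and black lines the medians of other tested genes per length class; members sit mostly between 1 and 2 in kidney CD4+ cells, with Rpl4 and Rpl7l1 below 0, and near 0 in spleen CD4+ cells.

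Per kb of transcript, members lay far apart in level. Among the highest mean levels over the 8 libraries were those of Rps14 (88314 per kb), Rpl32 (73225 per kb) and Rps19 (57015 per kb). The lowest among core members were Rpl14 (219.6 per kb), Rps2 (985.6 per kb), Rpl21 (1182 per kb), Rpl13 (1291 per kb) and Rpl30 (1691 per kb). Ribosomal protein genes have many processed pseudogenes, and how reads shared with a copy were counted is not given in the sources used here, so the order of members, and the low levels in particular, are uncertain. As shares of the reads on core members, without regard to length, the 10 most abundant, Rps3, Rps14, Rpsa and Rplp0 among them, took 38.5% together, and 22 core members had a level of at least 10000 in every library. In that share only Rpl4, Rps28, Rps29 and Rpl3 varied by more than 2 times between the highest and lowest library, Rpl4 by 5.995, from 0.854% in kidney CD4+ replicate 2 to 5.12% in replicate 1.

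Between cell types in spleen, nearly the whole set stood higher in CD8+ cells. The 82 members tested had a level of 10 or more in 2 or more libraries, which Rpl39l alone did not reach. Of these, 79 had both CD8+ libraries above both CD4+ libraries, against 19.8% of all genes tested, and 1 had both below, against 26% of all genes. The median difference (log2, CD8+ minus CD4+) was 0.65 over the tested members, a 1.56-fold higher level, and -0.05 over all genes tested. It was above 0 in 81 members and below 0 in 1, against 44.3% and 53.4% of all genes. The median was 0.69 for the 31 small subunit proteins, 0.58 for the 43 large subunit proteins and 0.70 for the 3 stalk proteins. Members were tested with limma, a linear model of log2(level + 1) fitted to all 8 libraries, and called at an adjusted p under 0.05 (Benjamini-Hochberg over 10845 genes). No member was called by limma, against 0.129% of all genes called higher and 0.231% called lower, and the smallest adjusted p was 0.658, for Rps2. At an unadjusted p under 0.05 limma gave 1 member (6.43% of all genes), edgeR 1 and DESeq2 2. For edgeR and DESeq2 the share of all genes at that threshold was not computed, so their counts are a description only. After adjustment edgeR and DESeq2 called no member, against 0.415% and 2.16% of all genes in either direction.

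Rps2, at the entrance of the small subunit's messenger RNA channel, differed most. Its level was 1601 and 1496 in spleen CD8+ cells and 748 and 699 in spleen CD4+ cells, which left the 2 groups well apart. That was a log2 difference of 1.10 ± 0.43 (SE), 2.14-fold. Rps2 took a mean of 0.079% of the reads on core members over the 8 libraries. The uncertainty stated above for low levels, from reads shared with copies, applies to it. Rps20, a protein of the small subunit head, had 20404 and 16642 in CD8+ and 8259 and 10246 in CD4+ cells, 2.003-fold. There, too, the lower CD8+ library exceeded the higher CD4+ one. Rpsa, which is also known as the laminin receptor precursor, had 70619 and 74525 in CD8+ and 37478 and 42026 in CD4+ cells (0.87 ± 0.52 SE).

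Among the stalk proteins, which recruit the elongation factors, Rplp0 had 66143 and 66720.3 in spleen CD8+ and 35226 and 44920.4 in spleen CD4+ cells. Rplp1 had 22672 and 20442 in CD8+ and 12902 and 13554 in CD4+ cells. Rplp2 had 10791 and 9204 in CD8+ and 5962 and 6322 in CD4+ cells. The 3 differences were close to each other, 0.74, 0.70 and 0.70 on the log2 scale, and in none did the groups overlap. In the large subunit, Rpl3, which lies at the peptidyl transferase centre, had 28865 and 29456 in CD8+ and 16438 and 19434 in CD4+ cells (0.71 ± 0.40 SE). Rpl5, which carries the 5S ribosomal RNA into the ribosome together with Rpl11, had 18854 and 16659 in CD8+ and 9769 and 11450.3 in CD4+ cells (0.74 ± 0.44 SE). Rpl11 had 11862 and 9961 in CD8+ and 7269 and 7809.8 in CD4+ cells, a smaller difference of 0.53 ± 0.48 (SE) with groups again apart.

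Other members with larger differences were Rps28, a small protein near the exit of the messenger RNA channel, with 10158 and 6430.4 in spleen CD8+ and 4745 and 3908 in spleen CD4+ cells (0.91 ± 0.54 SE), and Rpl35, which lies beside the exit of the nascent protein, with 19367 and 16477 in CD8+ and 9012 and 10136 in CD4+ cells (0.90 ± 0.54 SE). The 2 Rps28 libraries of spleen CD8+ cells were far from each other, those of Rpl35 less so. Rps3, which also takes part in DNA repair, had 73828 and 71055 in CD8+ and 45055 and 51296 in CD4+ cells (0.59 ± 0.56 SE). Rps4x, encoded on the X chromosome, had 27388 and 24888 in CD8+ and 14633 and 17280.3 in CD4+ cells (0.72 ± 0.49 SE). Rps27a, which is made as a fusion with ubiquitin, had 10608 and 9009 in CD8+ and 6473 and 6920.4 in CD4+ cells (0.55 ± 0.54 SE). In all 3 both CD8+ libraries were the higher ones. Rpl22, which is needed for the development of T cells with an alpha-beta receptor in mice, had 4902 and 4228 in CD8+ and 3306 and 3636 in CD4+ cells (0.39 ± 0.51 SE). Rpl39, which lines the exit tunnel, had 8414 and 6171 in CD8+ and 5488 and 4916 in CD4+ cells (0.47 ± 0.50 SE). Rpl41, a very short basic peptide of the ribosome, had 38269.5 and 30524 in CD8+ and 24399.5 and 24551 in CD4+ cells (0.48 ± 0.55 SE). These 3 differences were smaller than that of Rps28, and the groups were again apart.

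The smallest differences among core members were those of Rpl26 (0.29), Rpl30 (0.31) and Rpl17 (0.36), and Rpl30 was the only core member whose groups overlapped, with 1435 and 1220.4 in CD8+ and 885 and 1280.2 in CD4+ cells. Rps6, the small subunit protein that is phosphorylated downstream of mTOR, had 43847 and 40268 in CD8+ and 23276 and 29046 in CD4+ cells (0.69 ± 0.51 SE). Members with a pyrimidine run of at least 8 bases at or near the start had a median difference of 0.64 (n = 30). Those without a run of that length had 0.67 (n = 31) and those with no promoter entry 0.70 (n = 21). Other genes had medians of 0.01 under 600 nt, -0.01 at 600 to 1000 nt and -0.03 at 1000 to 1500 nt in this comparison. The part of length was not tested beyond the fit described above. Markers of other cells also differed between these groups. The summed level of 4 of 5 B cell markers was 881 to 978 in CD8+ and 367.5 to 415 in CD4+ libraries, with Cd79a and Cd79b above 0 in all 4, and that of 6 of 6 macrophage markers was 395 to 469.8 in CD8+ and 876 to 900.1 in CD4+ libraries, with Adgre1 at 0 in CD8+ cells. The sum of 4 of 5 dendritic cell markers was 2271 to 2822 in CD8+ and 4602 to 5652 in CD4+ libraries. Neutrophil sums overlapped, at 3569 to 6444 in CD8+ and 5657 to 9099 in CD4+ libraries. Their part in the result was not tested.

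The error of every member in this fit is shared by the 4 groups, of which kidney CD4+ cells had by far the largest spread between libraries. Without both kidney CD4+ libraries, an alternative chosen after seeing the data, limma called 20 of the 82 members higher and none lower in spleen CD8+ cells, against 1.2% of all genes called higher. They were 9 large subunit proteins, 1 stalk protein (Rplp1) and 10 small subunit proteins, with adjusted p of 0.0108 for Rps2, 0.0167 for Rpl35 and 0.0207 for Rps20. Leaving out kidney CD4+ replicate 1 or replicate 2 alone gave 21 and 19 calls (1.14% and 1.09% of all genes called higher), and 19 members were called in all 3 of these fits. A group left with 1 library adds nothing to the spread between libraries. These 3 fits therefore share the same spleen differences and draw on the spread of the same groups. Their shared calls follow largely from that and do not count as separate evidence. With the 4 spleen libraries alone limma called only Rps2 (0.433% of all genes called higher). Weighting libraries by their spread gave 9 members, Rps2, Rps20, Rpsa, Rpl5 and Rpl35 among them, all among those 20, against 2% of all genes called higher.

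**Figure D3:**
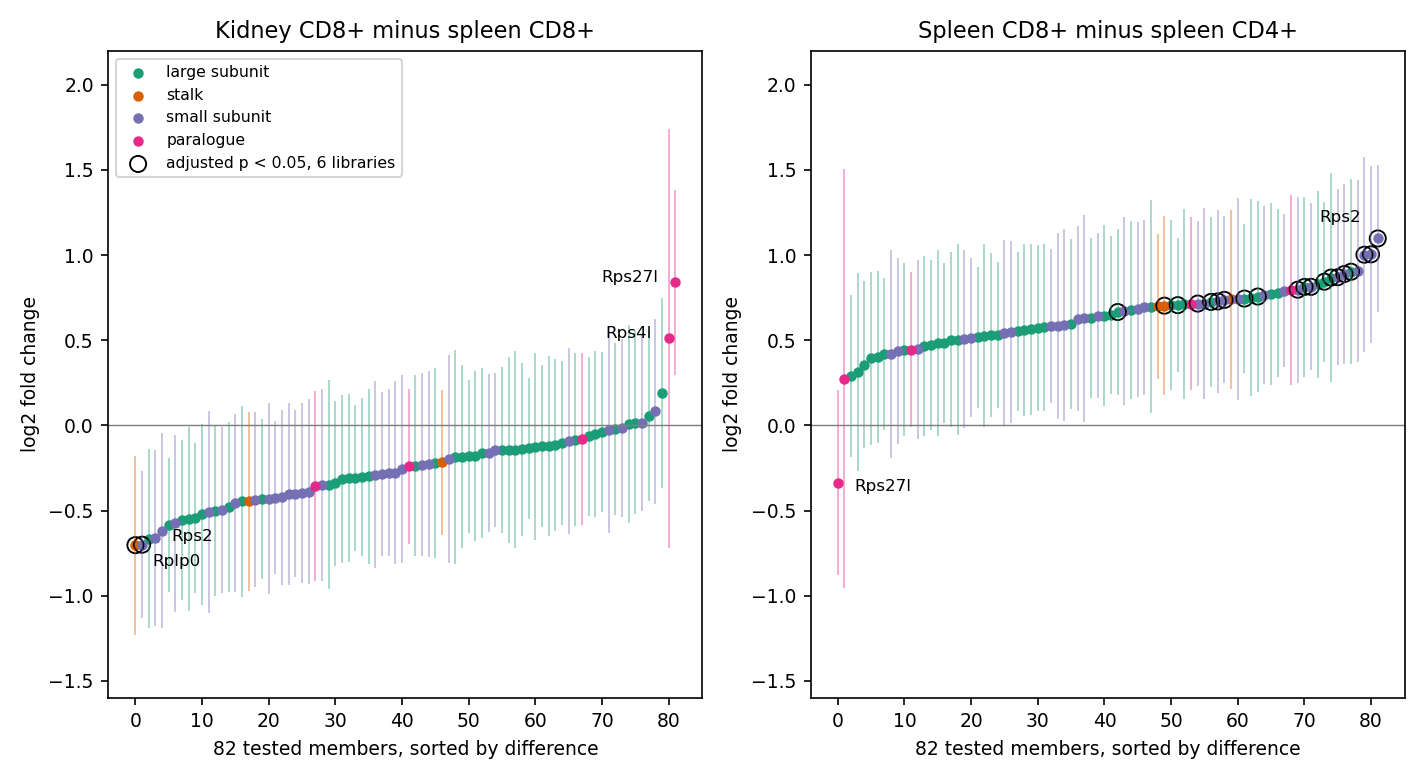
Log2 fold change of the 82 tested members, sorted, for kidney CD8+ minus spleen CD8+ cells (left) and spleen CD8+ minus spleen CD4+ cells (right), coloured by class, with vertical lines of 1 standard error either side from the fit on 8 libraries. Rings mark the 2 and 20 members that passed an adjusted p under 0.05 in the fit without kidney CD4+ libraries; the median was -0.25 on the left and 0.65 on the right, and Rps27l had the highest value on the left and the lowest on the right.

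In CD8+ cells, most members stood lower in kidney than in spleen, by less than the lineage difference within spleen. Of the 82 members, 48 had both kidney libraries below both spleen libraries, against 24.4% of all genes tested, and 3 (Rpl13a, Rps4l and Rps27l) had both above, against 26.7%. The median difference (log2, kidney minus spleen) was -0.25 over the members, a 1.19-fold lower level, and 0.00 over all genes, with 8 members above 0 and 74 below, against 49.8% of all genes on either side. The median was -0.12 without spleen CD8+ replicate 1 and -0.38 without spleen CD8+ replicate 2, so its size depended on which of them was kept. With all libraries it was -0.35 for small subunit, -0.18 for large subunit and -0.45 for stalk proteins. Limma called no member, against 1.21% of all genes called higher and 0.341% called lower in this comparison, and no member had an unadjusted p under 0.05 with limma (10.6% of all genes), edgeR or DESeq2. After adjustment edgeR and DESeq2 called 0.913% and 4.48% of all genes and no member. The CD8+ organ and spleen lineage comparisons share the spleen CD8+ libraries, so their opposite directions are not independent of each other. Besides the tubule, neutrophil and erythroid markers above, 6 of 6 macrophage markers summed to 860 to 1118 in kidney CD8+ and 395 to 469.8 in spleen CD8+ libraries, 4 of 5 dendritic cell markers to 3532 to 5790 in kidney and 2271 to 2822 in spleen, and 4 of 5 B cell markers to 224 to 247 in kidney, 2 of them at 0, and 881 to 978 in spleen. Their part in the result was not tested.

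Rplp0, the stalk protein that anchors Rplp1 and Rplp2, had 39328 and 42322 in kidney CD8+ and 66143 and 66720.3 in spleen CD8+ cells. The groups lay far apart relative to their replicates, and the log2 difference was -0.70 ± 0.53 (SE), a 1.63-fold lower level. Rps2 had 879 and 1031 in kidney and 1601 and 1496 in spleen (-0.70 ± 0.43 SE). Rpl4 had 29891 and 34574 in kidney and 47913 and 54211 in spleen (-0.66 ± 0.52 SE). Rpsa had 40579 and 51778 in kidney and 70619 and 74525 in spleen (-0.66 ± 0.52 SE). In these 3 members, too, both kidney libraries were below both spleen libraries. Without both kidney CD4+ libraries, limma called 2 members lower in kidney, Rplp0 (adjusted p = 0.0456) and Rps2 (adjusted p = 0.0438), against 2.47% of all genes called lower, a share close to 2 in 82. Without kidney CD4+ replicate 1 alone Rpl3 was called lower as well (2.34% of all genes called lower), with 19329.8 and 19545 in kidney and 28865 and 29456 in spleen.

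Most members differed by less than their standard error between the 2 CD8+ groups, as did each member named in this paragraph. The quartiles of the difference over the tested members were -0.43 and -0.12. Rpl13a, a large subunit protein with a known role outside the ribosome in silencing inflammatory transcripts, had 35827 and 32238 in kidney CD8+ and 31576 and 28132 in spleen CD8+ cells (0.19 ± 0.56 SE), slightly higher in both kidney libraries. Rpl11 had 10669 and 9617 in kidney and 11862 and 9961 in spleen, with overlapping groups. Differences below 0 but small were also seen in proteins of either subunit. Rpl10, which joins the large subunit late in its assembly, had 14157 and 13969 in kidney and 15639.6 and 14799 in spleen (-0.11 ± 0.50 SE). Rps14 had 55039 and 52250.1 in kidney and 65772 and 57272 in spleen (-0.19 ± 0.61 SE). Rps19, the most often mutated gene of Diamond-Blackfan anaemia, stood farther apart, with 36693 and 33149 in kidney and 55007 and 44851 in spleen (-0.51 ± 0.59 SE). Other genes had medians of 0.35 under 600 nt, 0.17 at 600 to 1000 nt and -0.14 at 2000 to 3000 nt in this comparison. Members had -0.18 under 600 nt and -0.23 at 600 to 1000 nt. The part of length was not tested beyond the fit described above.

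In kidney, CD8+ against CD4+ cells gave positive differences for 80 of 82 members, against 51.5% of all genes, and negative ones for 2, against 48.1%, but the groups mostly overlapped. The median difference (log2, CD8+ minus CD4+) was 0.46 over the members and 0.03 over all genes. Only 7 members had both CD8+ libraries above both CD4+ libraries, against 13.8% of all genes, and none had both below, against 14.1%. All 7 (Rpl36, Rpl38, Rplp2, Rps21, Rps27, Rps28 and Rps29) have transcripts under 600 nt. Rps29, a small zinc-binding protein of the small subunit, had 11400.3 and 9304 in CD8+ and 3300.0 and 6780.5 in CD4+ cells (1.12 ± 0.45 SE). Rplp2 had 9295 and 7911 in CD8+ and 2845 and 5854 in CD4+ cells (1.07 ± 0.43 SE). Even in these, kidney CD4+ replicate 1 lay far below replicate 2. Limma called no member, against 0.12% of all genes called higher and 0.083% called lower; the smallest adjusted p was 0.534 for Rplp2, 2 members had an unadjusted p under 0.05 with limma (8.51% of all genes) and none with edgeR or DESeq2, which called 0.221% and 1.98% of all genes after adjustment and no member. The sum of 6 of 6 macrophage markers was 860 to 1118 in CD8+ and 2979 to 3348 in CD4+ libraries, and that of 4 of 5 dendritic cell markers 3532 to 5790 in CD8+ and 14840 to 26326 in CD4+ libraries; their part was not tested. The size and sign turned on which kidney CD4+ library was kept. The median was -0.29 with 2 members called higher (Rpl4 and Rpl7l1; 9.1% of all genes called higher) without kidney CD4+ replicate 1, and 1.19 with 70 called higher (6.33% of all genes) without replicate 2.

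In CD4+ cells, the kidney libraries lay on either side of the spleen libraries for most members. The median difference (log2, kidney minus spleen) was -0.06 over the members and -0.08 over all genes, 30 members were above 0 and 52 below, against 45.6% and 54.3% of all genes, and 80 of 82 had overlapping groups. The sign of this median depended on the tool, at 0.16 with edgeR and 0.23 with DESeq2. None had both kidney libraries above both spleen libraries, against 16.3% of all genes. The 2 with both kidney libraries below both spleen libraries, against 15.6% of all genes, were Rplp2, with 2845 and 5854 in kidney and 5962 and 6322 in spleen, and Rps29, with 3300.0 and 6780.5 in kidney and 8656 and 7378 in spleen. The log2 differences were -0.59 ± 0.43 and -0.76 ± 0.45 (SE). Limma called no member, against 0.802% of all genes called higher and 0.157% called lower, with a smallest adjusted p of 0.705 (Rps29), and no member had an unadjusted p under 0.05 with limma (9.11% of all genes), edgeR or DESeq2. After adjustment edgeR and DESeq2 called 0.609% and 3.25% of all genes and no member. Leaving out kidney CD4+ replicate 1 gave 44 members called higher in kidney (7.41% of all genes) and 2 called lower (14.1%), and leaving out replicate 2 gave 24, all lower in kidney (1.34%), so the direction depended on which library was kept.

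The organ difference in CD8+ cells minus that in CD4+ cells had a median of -0.17 over the members and 0.11 over all genes, with 25 members above 0 and 57 below, against 54.8% and 45.2% of all genes. The size of this median depended on the tool, at -0.45 with edgeR and -0.50 with DESeq2, against -0.02 and -0.05 over all genes. With limma the difference was lowest for Rplp0 (-0.85), Rpsa (-0.84), Rps20 (-0.69) and Rpl8 (-0.69), a large subunit protein. No gene at all was called by limma in this comparison (0% of those tested), and no member had an unadjusted p under 0.05 with limma, edgeR or DESeq2, against 3.34% of all genes with limma; after adjustment edgeR called 0% and DESeq2 0.111% of all genes. The median was -0.96 without kidney CD4+ replicate 1 and 0.59 without replicate 2, against 0.17 and -0.10 over all genes. Each of these fits rests on a single kidney CD4+ library. Members were called, all of them lower, without replicate 1 but not without replicate 2, where the median had the opposite sign. A difference between the lineages in how these genes differ by organ was therefore not shown by these libraries.

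The paralogues did not all move with the set. Rps27l, a close copy of Rps27 that is known as a p53-induced gene, had 1149 and 813 in kidney CD8+, 400.3 and 1296 in kidney CD4+, 649 and 448 in spleen CD8+ and 674 and 688 in spleen CD4+ cells. It was the only tested member with both spleen CD8+ libraries below both spleen CD4+ libraries, and it was higher in kidney than in spleen in CD8+ cells (0.84 ± 0.54 SE, limma adjusted p = 0.675, not called). Rps27 itself had 13859 and 12064 in kidney CD8+, 4564 and 10446 in kidney CD4+, 16262 and 12862 in spleen CD8+ and 10573 and 9678 in spleen CD4+ cells. Without regard to their lengths, Rps27l stood at 8.29% and 6.73% of Rps27 in kidney CD8+, 8.77% and 12.4% in kidney CD4+, 3.99% and 3.48% in spleen CD8+ and 6.37% and 7.11% in spleen CD4+ libraries. Both spleen CD8+ libraries were below all the others in this ratio. Both genes have a pyrimidine run of 9 bases in the window printed above, but that of Rps27l ends before the annotated start. A further near-copy, Rps27rt, lies outside the rule, and reads may be split among them.

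Rpl22l1, whose product can take the place of Rpl22 and takes part in T cell development in mice, had 59.4% and 47.3% of the Rpl22 level in kidney CD8+, 44.3% and 41.5% in kidney CD4+, 54.1% and 47.7% in spleen CD8+ and 39.5% and 41.9% in spleen CD4+ libraries. In this ratio both CD8+ libraries of each organ were above both CD4+ libraries. Rpl7l1, a nucleolar relative of Rpl7, stood at 4.09% and 0.663% of Rpl7 in kidney CD4+ replicates 1 and 2, and between 2.18% and 2.62% in the other 6 libraries. Rpl32l had levels of 1959.9 and 1627 in kidney CD8+, 634 and 2269.5 in kidney CD4+, 2456 and 2123 in spleen CD8+ and 1122 and 1542 in spleen CD4+ cells, between 4.25% and 4.90% of Rpl32 in every library. Rps4l, known from rodents as a copy of Rps4x, rested on few reads, with levels of 33.1 and 29.3 in kidney CD8+, 43.7 and 2.08 in kidney CD4+, 16.2 and 28.6 in spleen CD8+ and 32.1 and 9.49 in spleen CD4+ cells. Rpl39l, best known from testis, reached 12.7 in kidney CD8+ replicate 1, had 0 reads in both kidney CD4+ libraries and was not tested.

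**Figure D4:**
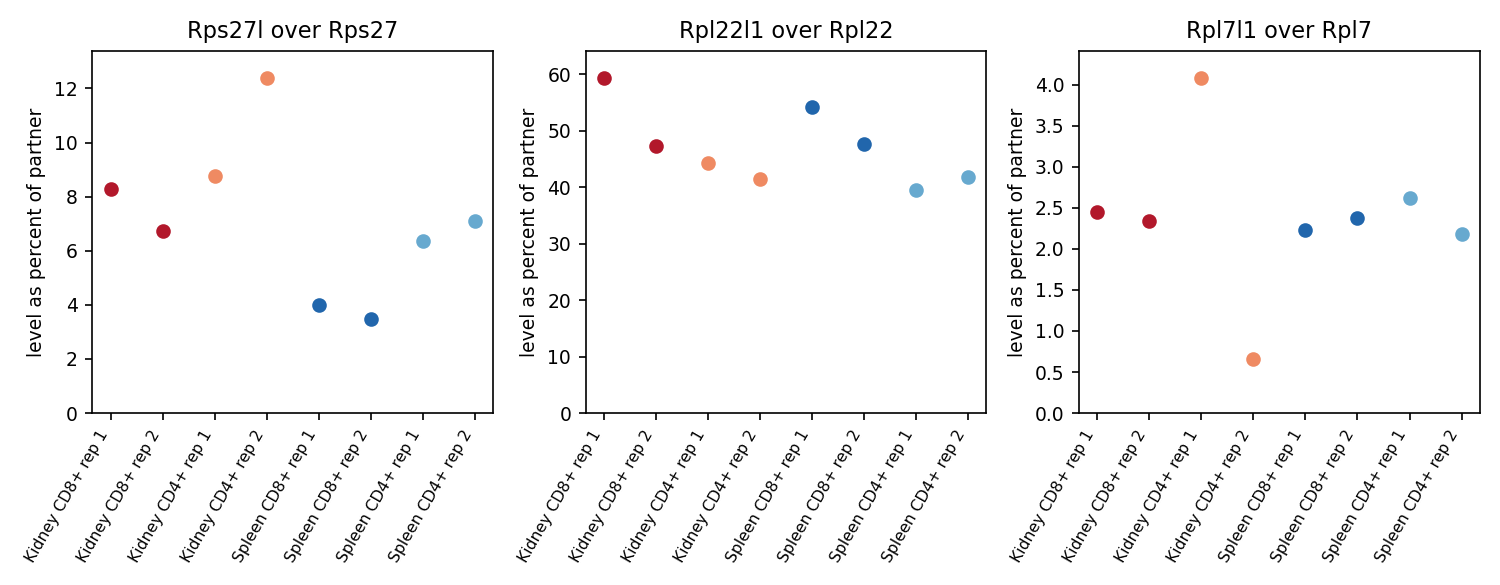
Level of Rps27l, Rpl22l1 and Rpl7l1 as a percent of the level of Rps27, Rpl22 and Rpl7 in each of the 8 libraries, 1 point per library, coloured by group, each vertical axis from 0. Rps27l ran from 3.48% in spleen CD8+ replicate 2 to 12.4% in kidney CD4+ replicate 2, and Rpl7l1 from 0.663% to 4.09% within the kidney CD4+ pair.

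Other genes of the translation machinery, listed by role, were set beside the members. No gene of these lists was called by limma in any of the 5 comparisons. The 8 translation elongation genes had a median log2 difference of -0.75 in kidney CD8+ against spleen CD8+ cells, with 6 of 8 having both kidney libraries lower, against 24.4% of all genes, and of 0.56 in spleen CD8+ against spleen CD4+ cells. Eef1a1, which delivers aminoacyl transfer RNA, had 81176 and 106195 in kidney CD8+, 115999 and 15884 in kidney CD4+, 135739 and 160110.0 in spleen CD8+ and 99297 and 94907 in spleen CD4+ cells. In the kidney CD4+ pair it thus ran opposite to the core members other than Rpl4. Eef2, the translocation factor, had 3691 and 4028 in kidney CD8+, 9793 and 3173 in kidney CD4+, 6725 and 10198 in spleen CD8+ and 6471 and 4529 in spleen CD4+ cells, again with replicate 1 above replicate 2 in kidney CD4+.

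The 61 ribosome biogenesis genes, which process ribosomal RNA and assemble subunits, had a median of -0.66 in kidney CD8+ against spleen CD8+ cells, and 45 of them had both kidney libraries lower, against 24.4% of all genes. In spleen CD8+ against CD4+ cells their median was 0.42 and 38 had both CD8+ libraries higher, against 19.8% of all genes. Npm1, a nucleolar protein that helps assembly, had 11556 and 14193 in kidney CD8+, 10382 and 15329 in kidney CD4+, 21269 and 20395 in spleen CD8+ and 11123 and 12047 in spleen CD4+ cells. Spleen CD8+ cells were above every other group for it. The 36 initiation genes had medians of -0.15 in the CD8+ organ comparison and 0.14 in the spleen lineage comparison, and the 77 mitochondrial ribosome proteins, which belong to a separate ribosome, 0.07 and 0.16. The 5 cytosolic ribosomal proteins outside the symbol rule (Fau, Rack1 and Rps27rt among them) had medians of 0.04 and 0.58.

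The regulators of ribosomal protein genes showed no common direction, with medians of 0.03 and 0.04 over 25 tested genes. Myc, a transcription factor that drives ribosome production, had 108 and 249 in kidney CD8+, 238 and 30.2 in kidney CD4+, 454 and 607 in spleen CD8+ and 169.6 and 148 in spleen CD4+ cells. It was highest in the spleen CD8+ libraries, though not called between spleen CD8+ and CD4+ cells (1.72 ± 0.86 SE, limma adjusted p = 0.882). Larp1 had 166 and 141 in kidney CD8+, 115 and 129 in kidney CD4+, 141 and 117 in spleen CD8+ and 122 and 85.4 in spleen CD4+ cells, with overlap in every comparison of groups other than CD8+ against CD4+ in kidney. Mtor and Eif4ebp1, the kinase and a translation repressor it controls, had levels of 6.94 to 51.5 and 2.69 to 21.1 over the 8 libraries. Among the 21 other genes listed for a pyrimidine start, whether or not a run was found, the medians were -0.14 and 0.25. Tpt1, a growth-related protein of that list, had 6849 and 6038 in kidney CD8+, 3681 and 9466 in kidney CD4+, 6752 and 5590.0 in spleen CD8+ and 5511 and 5356 in spleen CD4+ cells, so only the kidney CD4+ pair was far apart.

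**Figure D5:**
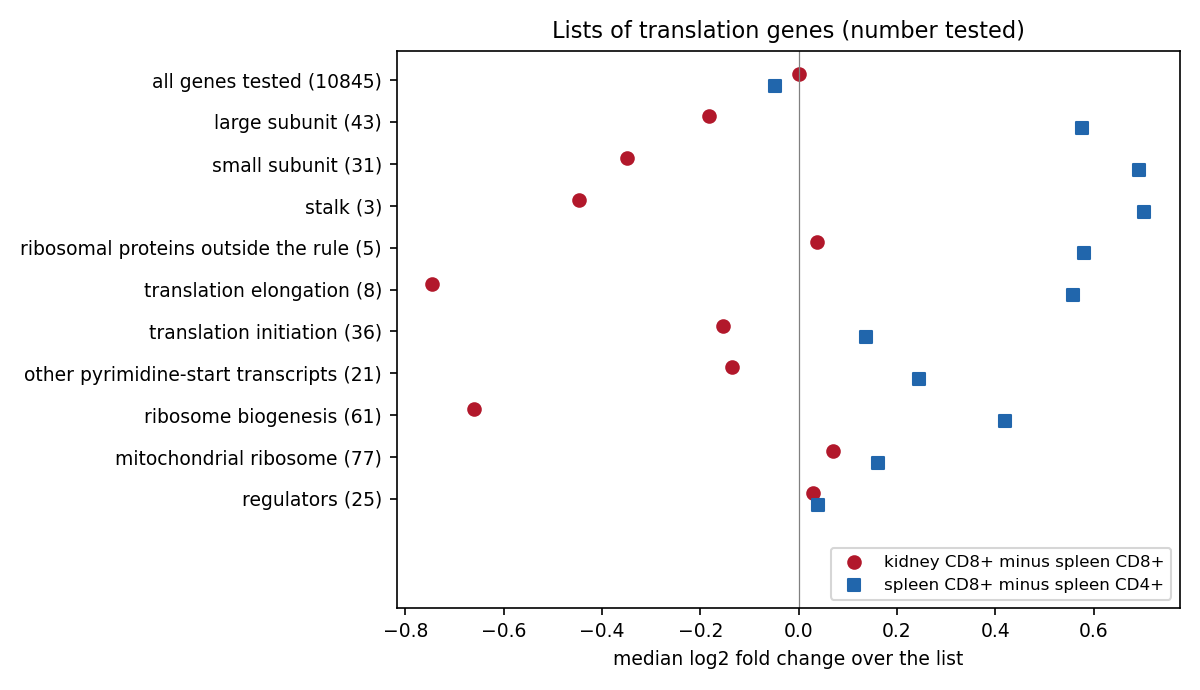
Median log2 fold change of each list of translation genes for kidney CD8+ minus spleen CD8+ cells (circles) and spleen CD8+ minus spleen CD4+ cells (squares), with the number of genes tested in parentheses. The 3 classes of ribosomal proteins lie at 0.58 to 0.70 in the spleen comparison, while elongation and biogenesis genes reach -0.75 and -0.66 in the CD8+ organ comparison.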

How the data were processed

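Levels are the authors' deposited normalised signal per gene and library (13341 genes, 8 columns, 0 columns left unused). The labels give genome build mm9 and an ultra-low-input SMART-Seq kit, which does not mark strand. Aligners named in the submitters' processing notes are STAR 2.5.3 and TopHat2 2.1.0; the sources used here name no counting tool, annotation or normalisation method. Within a library all deposited signal values were whole multiples of 1 step, so whole reads could be recovered for 100% of values (tolerance 1e-06).

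Groups were compared with limma 3.58.1 (R 4.3.3) on log2(level + 1), all 8 libraries, 4 group means, an intensity trend, two-sided, after a filter of level 10 in at least 2 libraries that left 10845 genes; this scale understates changes of low genes. Benjamini-Hochberg adjustment ran over all 10845 within each of 5 comparisons, called at 0.05. Because the values are normalised signal, the tests on recovered reads (edgeR 4.0.16, DESeq2 1.42.0) were alternatives. On the recovered reads, edgeR called 66 genes between organs for CD4+ cells and 99 for CD8+ cells, and 24 between lineages in kidney and 45 in spleen. Further alternatives changed the pseudocount, filter, scaling, weights, length trend, replicate block and libraries. Scripts were tested on simulated data. Medians over members carry no test.

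Transcript lengths came from mm9 gene models, for 79 members and 91.6% of tested genes; start sequences came from RefSeq. Named genes are the members with the 4 highest and 4 lowest differences per comparison, those called, a set fixed by role and the extremes of level per kb; some of these are not reported here. Members, lists and rules were chosen with earlier results of these data known. Replicate numbers come from the titles, and nothing in the labels says they pair samples.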

Additional observations from a re-analysis of the deposited data

How the results depend on the processing

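Leaving out each library in turn gave 0 to 46 members called and medians of -0.82 to 0.68 for kidney against spleen in CD4+ cells, 0 to 3 and -0.38 to -0.12 in CD8+ cells, 0 to 70 and -0.29 to 1.19 for CD8+ against CD4+ cells in kidney, 0 to 21 and 0.52 to 0.76 in spleen, and 0 to 33 and -0.96 to 0.59 for the difference between organ differences. Every count above 0 came from omitting a kidney CD4+ library. The extremes of the medians came from omitting a kidney CD4+ library in the comparisons that use that group, and a spleen CD8+ library in the other 2, whose medians did not move without a kidney CD4+ library. In the CD4+ organ comparison, log2 differences just below 0 with all libraries became 0.65 (Rpl11), 0.70 (Rpl22), 0.77 (Rps14), 0.66 (Rps19) and 0.70 (Rps27a) without kidney CD4+ replicate 1. They became -0.71 (Rpl11), -0.92 (Rpl22), -0.89 (Rps14), -1.03 (Rps19) and -0.99 (Rps27a) without replicate 2. In spleen, 20 members were called without both kidney CD4+ libraries (2 in the CD8+ organ comparison), 9 with library weights and 1 with the 4 compared libraries alone.

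Pseudocount 10, no filter, edgeR, DESeq2, TMM scaling and removal of the length trend each left 0 members called in all 5 comparisons. Centring each library on its median core member takes out the members' common shift, so its 0 calls say nothing about that shift. By the same step the median of all genes moved to -0.67 in the spleen lineage comparison and 0.22 in the CD8+ organ comparison. A fit with the replicate block called 0 members in every comparison. Its medians could not move, because every group holds both replicate numbers. Deviations of same-numbered libraries had r of -0.155 to 0.056 across genes, which does not show whether the numbers pair samples. Without the 5 most abundant members the mean share was 13.0% in kidney CD8+, 16.9% in spleen CD8+ and 12.2% in spleen CD4+ libraries, and with the 10 most abundant other genes left out of the total it was 20.2%, 25.6% and 18.0% in the same groups. Depth limits the members with few reads, Rps4l and Rpl39l, more than the core members, whose lowest mean level was 181.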

Other observations

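Within the list of ribosome quality control and p53 genes, Cdkn1a, a cell cycle inhibitor and p53 target that was picked after its values were seen, had 57.7 and 132 in kidney CD8+, 142 and 389 in kidney CD4+, 20.2 and 17.2 in spleen CD8+ and 119.7 and 71.6 in spleen CD4+ cells. For Cdkn1a, both spleen CD8+ libraries were below both kidney CD8+ and both spleen CD4+ libraries. Neither difference was called by limma (log2 2.17 ± 0.66 SE, adjusted p = 0.22 in the CD8+ organ comparison and -2.25 ± 0.66 SE, adjusted p = 0.337 in spleen). Cdkn1a was the highest of the 12 genes of that list in the first comparison and the lowest in the second. The list itself had 4 genes above 0 and 8 below in the first (median -0.29). In the second it had 5 above and 7 below (median -0.13). Mdm2, another p53 target picked in the same way, had 50.1 and 50.1 in kidney CD8+ and 54.5 and 44.9 in spleen CD8+ cells, with overlapping groups, and 119.7 and 97.5 in spleen CD4+ cells.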
